A study of Mus musculus with 2 samples.

Results

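The cells described here are T cells that carried transcripts of receptors best known from natural killer (NK) cells. They were chosen from a single-cell RNA-seq library of mouse CD4+ T cells by the detected transcripts of each cell, counted as unique molecular identifiers (UMIs). A cell was included when it had at least 2 UMIs of Cd3e, Cd3d, Cd3g and Trac in sum, UMIs of at least 2 of the 6 receptor genes Klrd1, Klrk1, Klrb1c, Klre1, Klrc1 and Klrc2, and no Foxp3 UMI. By this rule 172 of 13771 T cells (1.25%, exact Clopper-Pearson 95% interval 1.07 to 1.45%) were NK-receptor T cells, among 14382 cells of any kind that passed the quality and hashtag filters. The other T cells, 12838 in all, had no Foxp3 UMI and UMIs of at most 1 of the 6 genes. Because the rule read these same cells, every contrast below describes what goes along with the receptor genes and is not a test.

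The lectin-like NK receptors come in families that sit side by side in a gene cluster. Klrd1 (CD94) pairs with Klrc1 (NKG2A, inhibitory) or Klrc2 (NKG2C, activating) and reads the non-classical MHC molecule Qa-1, while Klrk1 (NKG2D) is an activating receptor for stress-induced ligands and signals through the adaptor Hcst (DAP10). Klrb1c encodes NK1.1, the surface marker by which NK and NKT cells are sorted in C57BL/6 mice, and Klre1 encodes a further lectin-like receptor of NK cells. T cells gain such receptors either as innate-like lineages (NKT cells, which depend on the factor Zbtb16, and gamma-delta T cells) or after repeated activation as effector cells that make granzymes, perforin and the chemokine Ccl5. In visceral adipose tissue, innate-like T cells are known as a source of cytokines that shape the other immune cells of the tissue.

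The study sorted CD4+ T cells from the visceral adipose tissue (VAT, 34000 cells per the labels) and the spleen (32000 cells) of C57BL/6 Foxp3.Cre-YFP mice. The groups were Treg-bmal1KO mice, in which Cre under the Foxp3 gene removes the clock gene Bmal1 (Arntl) from regulatory T cells, and Treg-bmal1WT mice, each at zeitgeber time (ZT) 12 or ZT 0. All cells were tagged with hashtag antibodies, pooled and run as 1 gene expression library and 1 hashtag library on the 10x Genomics 3′ platform. The hashtags are known by number only, so which hashtag came from which tissue, genotype or time is not known here, and a hashtag is a labelled pool of cells and not a replicate of a condition. The labels give neither the age nor the sex of the mice, nor how many mice were pooled.

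The expression library held 22960 barcodes and 96923402 UMIs, and 22952 of its barcodes were also in the hashtag library. Hashtags 1 to 6 carried the counts, and each was recognised by an antibody-bound oligo of its own, shown here because they split the cells in all values given by hashtag:
Hash1: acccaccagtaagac
Hash2: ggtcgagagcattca
Hash3: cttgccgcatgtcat
Hash4: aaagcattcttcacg
Hash5: ctttgtctttgtgag
Hash6: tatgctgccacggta
The NK-receptor T cells numbered 36, 14, 20, 9, 45 and 48 in hashtags 1 to 6 and held 684222 UMIs in all, against 45029720 UMIs in the other T cells. Median depth per cell was 3357.5 UMIs and 1430.5 genes in the NK-receptor T cells, against 3192 UMIs and 1266 genes in the other T cells. Their median mitochondrial share was 2.15%, against 2.17% in the other T cells. Levels are given as CPM (a gene's summed UMIs scaled to the same total in every group of cells), where 1 UMI was worth between 5.12 CPM in the NK-receptor T cells of hashtag 5 and 23.3 CPM in those of hashtag 4. The hashtags differed in what else they held: naive-type T cells (UMIs of at least 4 of 6 naive genes) numbered 59, 45, 95, 57, 1077 and 1252 in hashtags 1 to 6, so the other T cells of hashtags 5 and 6 were much richer in them.

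As a share of T cells, NK-receptor T cells made up 1.39% in hashtag 1 (0.977 to 1.92%), 0.978% in hashtag 2 (0.536 to 1.64%) and 1.21% in hashtag 3 (0.743 to 1.87%). The shares were 0.761% in hashtag 4 (0.349 to 1.44%), 1.26% in hashtag 5 (0.917 to 1.68%) and 1.44% in hashtag 6 (1.06 to 1.90%). All 6 intervals, which cover counting error only, overlapped.

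**Figure D1:**
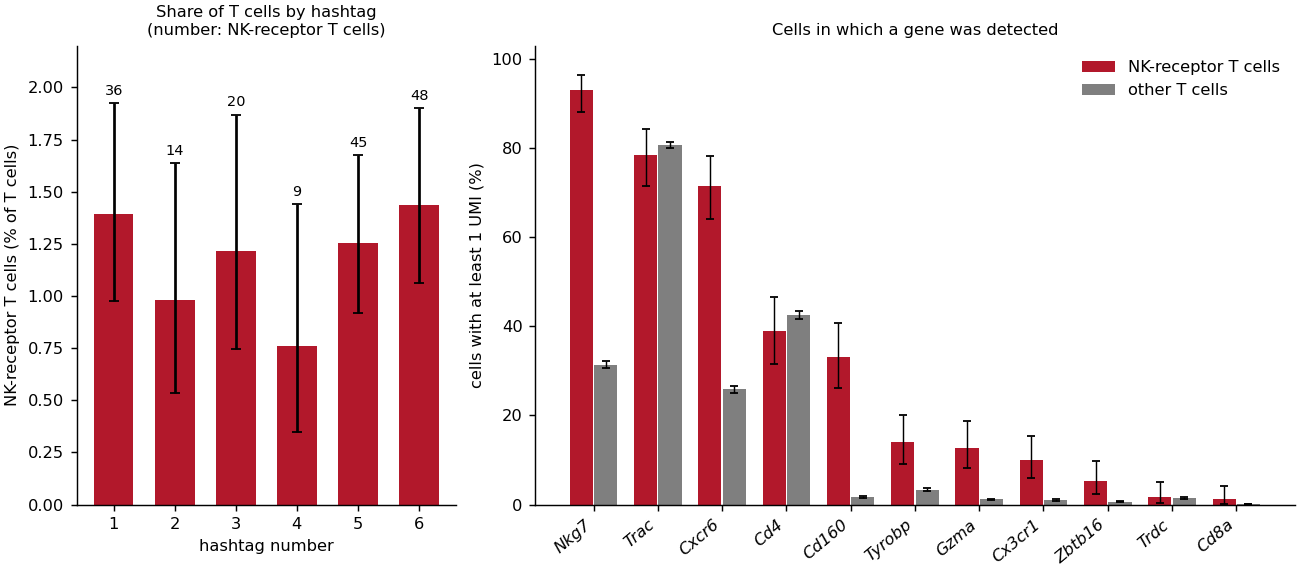
Left: NK-receptor T cells as a percentage of T cells in each hashtag, with exact 95% intervals and the number of cells above each bar. Right: percentage of NK-receptor T cells (red, left of each pair) and of other T cells (grey) with at least 1 UMI of 11 genes, with exact 95% intervals; Nkg7 was detected in 93.0% of NK-receptor T cells and 31.4% of other T cells, Cd4 in 39.0% and 42.5%.

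The 6 receptor genes chose the cells, and their values are given as a description. Klrd1 was detected in 75.6% and Klrk1 in 75.0% of the NK-receptor T cells, Klrb1c in 46.5%, and Klre1, Klrc1 and Klrc2 each in 23.8 to 25.6%. The commonest pair was Klrd1 with Klrk1, in 95 cells (55.2%), followed by Klrd1 with Klrb1c in 53 and Klrk1 with Klrb1c in 51. A chain that can pair with Klrd1, either Klrc1 or Klrc2, was detected in 69 cells (40.1%), and in 41 of these together with Klrd1. The mix of receptors differed between hashtags. Klrc1 or Klrc2 was detected in 10, 4, 5, 1, 23 and 26 cells of hashtags 1 to 6, and Klrb1c in 12, 4, 6, 2, 25 and 31, so both were commonest in hashtags 5 and 6. Klre1 ran the other way, at 214, 167, 101, 139.7, 66.5 and 38.9 CPM in the NK-receptor T cells of hashtags 1 to 6, lowest in hashtags 5 and 6.

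The cut at 2 receptor genes fell on a short tail. Of the T cells without Foxp3, 12185 had none of the 6 genes and 653 had 1, while 94 had 2, 45 had 3, 22 had 4, 10 had 5 and 1 had all 6. A further 3 T cells had 2 or more receptor genes together with a Foxp3 UMI, and 6 cells had 2 or more but fewer than 2 T cell UMIs. None of 13 B-like cells (at least 3 UMIs of Cd79a, Cd79b and Ms4a1 and under 2 T cell UMIs) and none of 20 macrophage-like cells (the same with C1qa, C1qb and C1qc) had a UMI of any of the 6 genes. Of 296 barcodes that met the gene rule, 124 had no single hashtag and are not included.

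Transcripts of the alpha-beta T cell receptor and of Cd4 were detected in these cells about as often as in the other T cells. Trac was detected in 78.5% of NK-receptor T cells and 80.8% of other T cells, and 171 of the 172 had a UMI of Trac, Trbc1 or Trbc2. Cd4 was detected in 67 of the 172 (39.0%, 31.6 to 46.7%), against 42.5% of the other T cells and none of the 13 B-like cells. After thinning each cell to 2000 UMIs, which left out 16 NK-receptor T cells, the shares with Cd4 were 25.6% and 28.3%. In all, 64 cells had Cd4 without Cd8a or Cd8b1, 3 had both, 1 had only a Cd8 gene, and 104 (60.5%) had neither, which at this depth does not show that Cd4 is absent. Trdc, the constant region of the delta chain, was seen in 3 cells (1.74%), all of which also had Trac and Cd4, against 1.38% of the other T cells, and no cell had Trdc without a coreceptor gene.

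Marks of innate-like lineages were detected in a minority. Zbtb16, the factor that sets up NKT and other innate-like T cells, was detected in 9 NK-receptor T cells (5.23%, 2.42 to 9.70%) and in 0.615% of other T cells; after thinning the shares were 3.21% and 0.321%. These 9 cells lay in hashtags 5 (5 cells) and 6 (4 cells). The NKT receptor gene Trav11 was detected in 1 of the 172 cells and in 8 of the 12838 other T cells. The beta-chain variable genes Trbv13-1 and Trbv13-2 were rare too, each in 0.581% of NK-receptor T cells, against 0.701% and 0.670% of other T cells. Trbv29 was detected in 3 NK-receptor T cells (1.74%, 0.361 to 5.01%) and in 0.117% of other T cells (0.0654 to 0.193%). Trbv1 was in 1.16% and 0.569%, Trbv19 in 0.581% and 0.919%, and Trbv13-3 in 0 and 0.335%. At such detection, and with 10 Zbtb16 UMIs in all, a missing UMI does not show that a gene is absent. Constant genes of the gamma chain (the Trgc genes) were detected in 35 cells (20.3%, 14.6 to 27.1%), against 1.04% of the other T cells. They were detected in 1.80% of Th1-type T cells and none of the 218 Gzmk Eomes T cells, classes chosen for comparison and defined further on. Of these 35 cells 33 also had Trac and 12 also had Cd4, so gamma-chain transcripts here mostly occurred in cells with alpha-chain transcripts. Trgc1 and Trgc2 are near-identical genes whose reads may have been split between them. Il4, a cytokine of NKT cells, was detected in 4.07% of NK-receptor T cells and 1.11% of other T cells. Of 11 NKT and MAIT genes at 10 CPM or more in either class, 8 were above 0 on the log2 scale of the comparison below. Their median ratio was 0.90 (-0.68 to 1.73 over hashtags), and 1 of them, Ly6c2, was called higher.

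Of the 5 genes given as marks of the class, 3 (Klrd1, Klrk1 and Klrb1c) were used by the rule, and the other two held for few cells. Gzma, a granule protease, was detected in 22 NK-receptor T cells (12.8%) and 1.15% of other T cells, and Cx3cr1, the fractalkine receptor of circulating effector cells, in 17 (9.88%) and 0.974%. Gzma was found in 7, 4, 6, 1, 0 and 4 cells of hashtags 1 to 6 and Cx3cr1 in 5, 2, 5, 2, 2 and 1, so both were in a minority of the cells of every hashtag. The cells are therefore called NK-receptor T cells here, without a lineage name.

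Markers of NK cells themselves were higher in some of these cells. Of 13 such genes 9 were measured, at 10 CPM or more in either class, and 7 of the 9 were above 0 on the log2 scale of the comparison below, with none 2-fold higher in every hashtag. Their summed level was 56.3 to 3448 CPM in the NK-receptor T cells of the 6 hashtags and 56.1 to 121 CPM in the other T cells, and Klra4 was at 0 in all NK-receptor T cells. At least 3 of the 13 genes were detected in 13 cells (7, 4, 1, 1, 0 and 0 in hashtags 1 to 6), and none of them in 110. These 13 cells had 2 to 30 UMIs of the T cell genes, 10 had Trac, 12 had Tyrobp and 8 had Ncr1, the NK receptor NKp46, and their median depth was 5026 UMIs against 3318 in the rest. Tyrobp, the adaptor DAP12, stood at 435, 942, 14.5, 1164, 15.4 and 38.9 CPM in the NK-receptor T cells of hashtags 1 to 6, against 39.1, 16.1, 19.2, 18.3, 13.9 and 21.5 CPM in the other T cells. High values were thus confined to hashtags 1, 2 and 4. In hashtag 4 only 2 of 9 NK-receptor T cells had Tyrobp, and 1 of them held 39 of its 180 UMIs. The part of NK cells or of cell pairs in the results below was not tested. Levels without these 13 cells are given for Fcer1g, Gzma, Ly6c2 and Cxcr6, besides counts of called genes and some list medians. For other genes, among them the Klra genes, Zeb2 and Cx3cr1, no level without them is given.

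Against the other T cells of the same hashtag, 8332 genes were compared in hashtags 1, 3, 5 and 6, the ones with at least 20 NK-receptor T cells. The measure is the log2 ratio of CPM, with 0.5 counts of the smaller class added as CPM on both sides, and a gene is called when it differed by 2-fold or more the same way in all 4 hashtags. With the 6 receptor genes, the 4 T cell genes and Foxp3 of the rule left out, 30 genes were called higher (0.36%) and 33 lower (0.396%). A short list with no gene called is therefore near the share over all genes. The median ratio of all genes was 0.03. In brackets after the levels of a gene stand the median of its log2 ratio and its range over these 4 hashtags. The 30 genes rested on 8 to 839 UMIs in the NK-receptor T cells, the most for Nkg7, and ratios of genes at or near 0 in a hashtag depend on the added count.

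**Figure D2:**
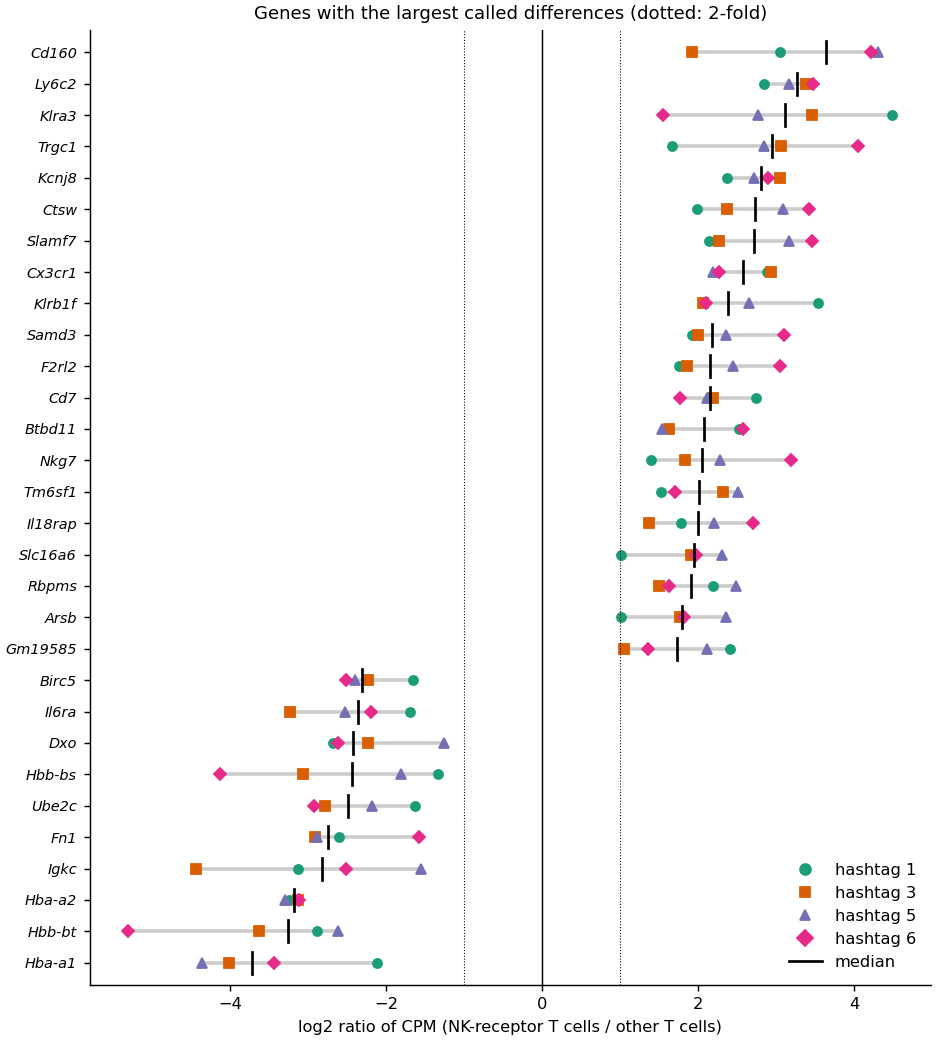
Log2 ratio of CPM, NK-receptor T cells over other T cells, for the 20 genes with the largest called increases and the 10 with the largest called decreases, 1 symbol per hashtag (1, 3, 5 and 6), a black bar at the median and dotted lines at 2-fold. Ly6c2 spans only 2.85 to 3.48, while Cd160 spans 1.92 to 4.30.

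Other NK receptors went along with the 6 genes of the rule. Of 24 further NK receptor genes 15 were measured, 5 were called higher and none lower, with a median ratio of 1.34 (0.18 to 3.05 over the 4 hashtags). Cd160, a receptor for the TNF-receptor family member HVEM and for MHC class I, stood at 68.7, 15.2, 28.98, 69.9, 276 and 183 CPM in the NK-receptor T cells of hashtags 1 to 6, against 4.95, 5.21, 2.36, 1.12, 11.6 and 7.27 CPM in the other T cells. Its median ratio was 3.63 (1.92 to 4.30), and its level was highest in hashtags 5 and 6, where 25 and 22 cells had it. Slamf7, a self-binding receptor of the SLAM family found on NK cells, stood at 68.7, 30.4, 101, 139.7, 123 and 117 CPM in the NK-receptor T cells, against 12.6, 18.1, 15.3, 9.83, 11.5 and 8.10 CPM in the other T cells, so the lowest of the 6 NK-receptor values was above the highest of the others. Its median ratio was 2.71 (2.14 to 3.46). Cd7, a surface protein shared by NK and T cells, averaged 117 CPM in the NK-receptor T cells over all hashtags and 22.1 CPM in the other T cells, with a ratio of 2.15 (1.76 to 2.73). Cd226, the activating receptor DNAM-1, was at 197 CPM in the NK-receptor T cells and 83.3 CPM in the other T cells but passed 2-fold in only some hashtags (0.52 to 2.43), and Klrg1, a mark of late effector cells, was at 94.998 and 130.2 CPM with a ratio of -0.43.

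The Ly49 receptors, encoded by Klra genes, bind MHC class I and were rare. At least 1 of Klra1, Klra3, Klra7 and Klra9 was detected in 29 NK-receptor T cells (16.9%), 13, 4, 6, 2, 2 and 2 in hashtags 1 to 6. Klra1 had 34 UMIs in 13 NK-receptor T cells and 1 UMI in the 12838 other T cells; 20 of the 34 were in hashtag 1. Klra9 had 18 UMIs in the NK-receptor T cells and 9 in the other T cells, and Klra7 had 10 and 3. Klra3 stood at 99.2, 15.2, 72.5, 0, 15.4 and 5.56 CPM in the NK-receptor T cells of hashtags 1 to 6, against 0.781, 1.13, 0, 0, 0.0813 and 0.0835 CPM in the other T cells, with a ratio of 3.11 (1.54 to 4.49) and 23 UMIs in all, 6 of them in 1 cell, against 13 UMIs in the other T cells. Klrb1f, a lectin-like receptor of the same family as Klrb1c, was at 46.8 CPM in the NK-receptor T cells and 4.71 CPM in the other T cells (2.37, 2.06 to 3.53). The Klra and Klrb1 families hold near-identical copies, so the split of reads among their members is uncertain. The 6 rule genes and these neighbours lie on chromosome 6 between 128609227 and 130386874 (GRCm38.p6 gene table). Of 16 other measured genes in that interval 2 were called higher, Klra3 and Klrb1f, against 28 of 8103 measured genes elsewhere, and 10 of the 16 were above 0. Cd69, an early activation marker in the same interval, was at 177 CPM in the NK-receptor T cells and 211 CPM in the other T cells, a ratio of -0.01 (-0.92 to 0.58).

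Signalling partners of these receptors changed less. Of 14 measured adaptors and proximal kinases 1 was called higher (Txk) and none lower, and the median ratio was -0.06. Hcst, the adaptor through which Klrk1 signals, stood at 1457, 1154, 1609, 466, 972 and 1089 CPM in the NK-receptor T cells of hashtags 1 to 6, against 902, 856, 1004, 871, 631 and 629 CPM in the other T cells. Its ratio was 0.68 with a narrow range of 0.62 to 0.79, under 2-fold, and it was detected in 95.9% of NK-receptor T cells and 82.4% of other T cells. Txk, a Tec-family kinase of T and NK cells, stood at 289.9, 289, 275, 303, 429.9 and 428 CPM in the NK-receptor T cells, against 81.5, 64.5, 96.04, 81.2, 167 and 176 CPM in the other T cells, a ratio of 1.40 (1.27 to 1.78). Txk is usually counted with naive T cell genes, and in the other T cells it was highest in hashtags 5 and 6. Cd247, the zeta chain of the T cell receptor complex, was at 118 CPM in the NK-receptor T cells and 182 CPM in the other T cells (-0.81, -0.93 to -0.14), and Lck and Lat had ratios of -0.09 and 0.01. Fcer1g, the adaptor used by Ncr1, was at 227 CPM in the NK-receptor T cells and 17.3 CPM in the other T cells, but at 153 CPM in the 159 NK-receptor T cells with fewer than 3 NK cell markers.

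Of 18 measured genes of granules and killing, 2 were called higher, Nkg7 and Ctsw, and none lower; 16 were above 0 and the median ratio was 0.65 (0.28 to 0.96). Nkg7, a membrane protein of cytotoxic granules, stood at 1411, 1367, 1725, 1001, 972 and 1178 CPM in the NK-receptor T cells of hashtags 1 to 6, against 534, 517, 481, 358, 199 and 127 CPM in the other T cells. It was detected in 93.0% of NK-receptor T cells and 31.4% of other T cells, and the 6 NK-receptor values all lay above the highest of the others (2.05, 1.40 to 3.18). Ctsw, a protease of cytotoxic lymphocytes, stood at 275, 349, 391, 116, 389 and 444 CPM in the NK-receptor T cells, against 66.8, 57.3, 70.1, 45.2, 43.5 and 39.003 CPM in the other T cells, again without overlap (2.73, 1.98 to 3.42). The effector molecules themselves were less uniform. Prf1, the pore-forming perforin, was detected in 18.6% of NK-receptor T cells and 4.95% of other T cells (1.14, 0.18 to 1.53), and Fasl, the death ligand, in 27.3% and 5.83% (1.87, 0.51 to 3.51). Gzmb was near the floor in both, at 17.5 and 13.4 CPM, and Gzmk was at 10.2 CPM in the NK-receptor T cells and 29.003 CPM in the other T cells.

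Gzma split the hashtags. Its level was 381, 1352, 956, 652, 0 and 77.8 CPM in the NK-receptor T cells of hashtags 1 to 6, against 23.8, 60.9, 10.4, 14.05, 2.03 and 3.26 CPM in the other T cells. In hashtag 4 all of it came from 1 of 9 cells, and 1 cell of hashtag 2 held 50 of the 247 Gzma UMIs. The 0 in hashtag 5 allows up to 15.4 CPM (3 counts), and Gzma was not called, with a ratio of 3.77 (-0.84 to 5.77). Of the 22 cells with Gzma 10 also had Cx3cr1 and 12 also had Cxcr6. In the 13 cells with 3 or more NK cell markers, of which Gzma is itself one, it stood at 1133 CPM, and in the other 159 NK-receptor T cells at 284 CPM.

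Of 15 measured chemokines and cytokines none was called in either direction, and the median ratio was 0.23. Ccl5 (RANTES), a chemokine of effector T and NK cells, was among the most abundant transcripts, at 9056, 8324, 10999.5, 8314, 2963 and 4862 CPM in the NK-receptor T cells of hashtags 1 to 6, against 2432, 2129, 2444, 1624, 1876 and 1130.0 CPM in the other T cells. All 6 NK-receptor values were above all 6 of the other T cells, but the ratio in hashtag 5 was below 2-fold (1.999, 0.66 to 2.17). Xcl1, which attracts cross-presenting dendritic cells, stood at 320.4, 167, 43.5, 46.6, 312 and 306 CPM in the NK-receptor T cells, against 26.2, 44.1, 32.8, 14.9, 15.7 and 9.19 CPM in the other T cells (3.77, 0.34 to 4.69). It was detected in 13, 6, 2, 1, 27 and 28 NK-receptor T cells of hashtags 1 to 6, 77 in all (44.8%), against 3.30% of the other T cells. Ifng, the main cytokine of NK and Th1 cells, was at 81.8 CPM in the NK-receptor T cells and 49.1 CPM in the other T cells (0.59, 0.50 to 1.30). The level of Ccl4, 373 CPM in the NK-receptor T cells against 55.5 CPM, came mostly from 1 cell of hashtag 2, which held 195 of its 255 UMIs.

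Among 18 measured cytokine receptors 1 was called higher and 1 lower. Il18rap, the accessory chain of the IL-18 receptor, stood at 160.2, 75.95, 130.4, 116, 51.2 and 77.8 CPM in the NK-receptor T cells of hashtags 1 to 6, against 43.9, 48.4, 46.2, 57.9, 9.10 and 9.60 CPM in the other T cells (1.99, 1.37 to 2.70), and Il18r1, the ligand-binding chain, was at 107 and 60.8 CPM (0.69). Il2rb, the chain shared by the IL-2 and IL-15 receptors, stood at 412, 425, 464, 163, 466 and 561 CPM in the NK-receptor T cells, against 257, 231, 287, 229, 110.1 and 97.9 CPM in the other T cells. The Il2rb ratio was 1.37 (0.67 to 2.49), and only hashtag 4, with 9 NK-receptor T cells, had the lower value in them. Il6ra, the IL-6 receptor of naive and regulatory cells, was the receptor called lower, at 24.8 CPM in the NK-receptor T cells and 83.4 CPM in the other T cells (-2.36, -3.24 to -1.70). Il7r, the survival receptor of resting T cells, was at 452 and 457 CPM (-0.01, -0.75 to 0.29). Il1rl1, the IL-33 receptor, was at 26.3 and 108 CPM.

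Several homing receptors differed widely between hashtags. Of 26 measured genes 2 were called higher, Cx3cr1 among them, and none lower. Cxcr6, which retains T and NK cells in tissues and in the liver, stood at 221, 379.8, 275, 396, 819 and 956 CPM in the NK-receptor T cells of hashtags 1 to 6, against 356, 451, 265, 375, 52.9 and 40.1 CPM in the other T cells. In hashtags 1 to 4 the values lay close together or were lower in NK-receptor T cells, and in hashtags 5 and 6 they were over 15-fold higher in them (1.97, -0.68 to 4.48). Cxcr6 was detected in 17, 8, 9, 4, 41 and 44 of the 36, 14, 20, 9, 45 and 48 NK-receptor T cells of hashtags 1 to 6. Cx3cr1 stood at 68.7, 60.8, 130.4, 69.9, 15.4 and 16.7 CPM in the NK-receptor T cells, against 5.99, 11.5, 10.8, 6.46, 1.38 and 1.25 CPM in the other T cells (2.58, 2.18 to 2.93). It rested on 31 UMIs, and when cells were thinned to 2000 UMIs before the rule its ratio was -0.27.

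Other homing genes did not pass 2-fold in all 4 hashtags. Itga1 (CD49a), a collagen-binding integrin of tissue-resident cells, stood at 91.6, 91.1, 72.5, 69.9, 81.9 and 94.5 CPM in the NK-receptor T cells of hashtags 1 to 6, against 43.4, 47.1, 42.4, 37.1, 9.10 and 8.18 CPM in the other T cells (1.94, 0.68 to 3.15). Its level hardly varied among the NK-receptor T cells, while that of the other T cells was lowest in hashtags 5 and 6. Itgal and Itgb2, the chains of the adhesion receptor LFA-1, had ratios of 0.77 (0.64 to 1.23) and 0.91 (0.75 to 1.19). S1pr5, which lets NK cells leave tissues, had 20 UMIs in the NK-receptor T cells, none of them in hashtag 5. Ccr7 and S1pr1, which guide recirculation through lymph nodes, were at 45.3 and 109.6 CPM in the NK-receptor T cells and 143 and 189 CPM in the other T cells, with ratios of -1.82 (-2.70 to 0.17) and -0.87 (-1.20 to -0.17).

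**Figure D3:**
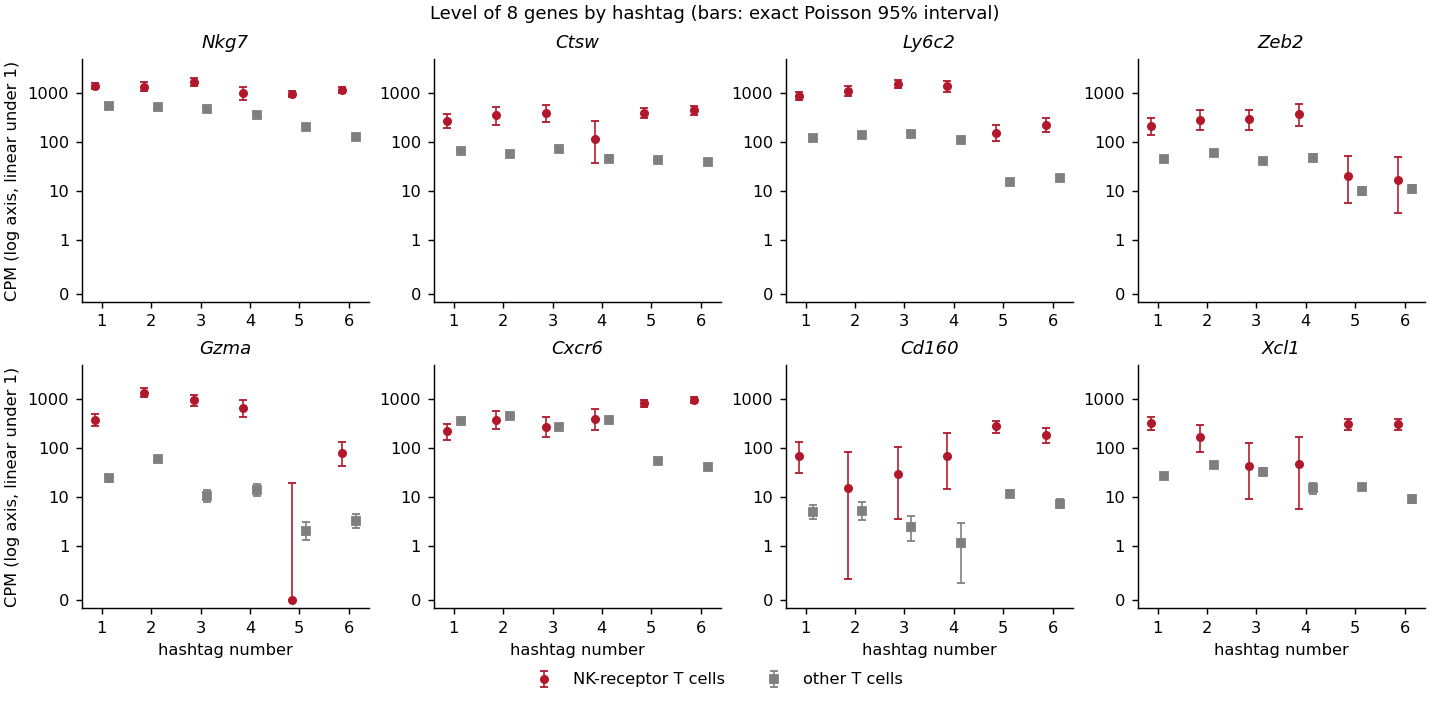
Level (CPM, log axis that is linear below 1) of 8 genes in hashtags 1 to 6, in NK-receptor T cells (red circles) and other T cells (grey squares), with exact Poisson 95% intervals. Ly6c2, Zeb2 and Gzma of the NK-receptor T cells are lowest in hashtags 5 and 6, while Cxcr6 and Cd160 are highest there.

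Ly6c2, encoding the effector marker Ly6C, gave the steadiest large difference. It stood at 877, 1109, 1565, 1374, 154 and 228 CPM in the NK-receptor T cells of hashtags 1 to 6, against 119, 139, 144, 111, 14.95 and 17.96 CPM in the other T cells. The value of hashtag 4 rested largely on 1 cell, which held 43 UMIs where 1 UMI was worth 23.3 CPM. The ratio was 3.27 with a range of 2.85 to 3.48, although the level itself was far lower in hashtags 5 and 6 in both classes. Ly6c2 was detected in 24, 12, 18, 5, 13 and 12 NK-receptor T cells of hashtags 1 to 6, 84 in all (48.8%), against 9.005% of the other T cells. Seen together with Cxcr6, 33 cells had Ly6c2 without Cxcr6 (14, 4, 10, 3, 1 and 1 in hashtags 1 to 6), 72 had Cxcr6 without Ly6c2 (7, 0, 1, 2, 29 and 33), 51 had both and 16 had neither. The NK-receptor T cells of hashtags 5 and 6 were therefore mostly Cxcr6-positive and Ly6c2-negative, while in each of hashtags 1 to 4 most had Ly6c2.

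No transcription factor of 27 measured was called in either direction, which is near the share over all genes (0.36% higher and 0.396% lower). Id2, which NK cells and effector T cells require, stood at 809, 729, 927, 536, 1428 and 1489 CPM in the NK-receptor T cells of hashtags 1 to 6, against 547, 614, 554, 547, 158 and 148 CPM in the other T cells (1.94, 0.56 to 3.31). In hashtag 4 the level was slightly lower in the NK-receptor T cells, and in hashtags 5 and 6 about 9 to 10 times higher. Tbx21 (T-bet), the factor of Th1 and NK effector programs, was at 83.3 CPM in the NK-receptor T cells and 28.3 CPM in the other T cells (2.03, 0.65 to 2.56). Its relative Eomes was at 13.2 and 13.9 CPM and was detected in 3.49% and 3.08% of cells. Zeb2, which acts with T-bet in terminal effector and NK cell maturation, stood at 214, 289, 289.8, 373, 20.5 and 16.7 CPM in the NK-receptor T cells, against 45.6, 60.7, 39.9, 47.8, 9.83 and 10.8 CPM in the other T cells (1.52, 0.52 to 2.66). Like Gzma it was low in hashtags 5 and 6. Runx3, a factor of cytotoxic lineages, had a ratio of 0.98 (0.75 to 0.995), and Stat4, which relays IL-12, 0.91 (0.43 to 1.45). Tcf7 and Lef1, factors of naive and memory T cells, had ratios of -1.15 (-1.83 to -0.01) and -0.73 (-1.61 to -0.01).

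Set against lists of T cell states, all 13 measured genes of Th1 and effector memory cells were above 0, with a median ratio of 1.87 (0.53 to 2.38), and 3 were called higher, Ly6c2 and Nkg7 among them. Over all genes, 4380 of 8332 were above 0. Of 13 measured naive genes 2 were above 0 and 1 was called, Txk, with a list median of -0.87 (-1.66 to -0.01). Dapl1 and Igfbp4, genes of naive CD4 T cells, were at 49.7 and 55.5 CPM in the NK-receptor T cells and 182 and 182 CPM in the other T cells. Satb1, a chromatin organiser of naive T cells, differed from them, at 91.6, 30.4, 159, 69.9, 302 and 289 CPM in the NK-receptor T cells of hashtags 1 to 6, against 39.8, 43.9, 65.01, 61.8, 212 and 257 CPM in the other T cells (0.82, 0.16 to 1.21). Of 12 measured regulatory T cell genes none was called and 1 was above 0, with a median of -1.13, in cells that were required to lack Foxp3 on both sides. Of 9 measured inhibitory receptors 1 was called, Cd160, while Ctla4 (-1.70, -2.17 to -0.56), Pdcd1 (-0.83, -2.41 to -0.27) and Lag3 (-1.07, -1.998 to -0.33) were below 0 in all 4 hashtags.

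Of 12 measured clock genes, which the study design addresses, none was called and 6 were above 0, with a median of -0.02. Over all genes 0.36% were called higher and 0.396% lower, so none called among 12 genes is near that share. Arntl, which encodes Bmal1, stood at 30.5, 15.2, 14.5, 46.6, 30.7 and 22.2 CPM in the NK-receptor T cells of hashtags 1 to 6, on 18 UMIs in all, against 20.6, 21.7, 16.5, 21.3, 15.3 and 12.9 CPM in the other T cells (0.59, -0.13 to 0.90). The 95% interval of the pooled level was 15.6 to 41.6 CPM in the NK-receptor T cells, against 15.6 to 18.03 CPM in the other T cells. The intervals, which cover counting error only, overlapped. Of the output genes, Dbp was at 23.4 and 22.98 CPM and Nr1d2 at 13.2 and 13.7 CPM in the NK-receptor and other T cells. None of 13 measured interferon response genes was called (median -0.03), nor any of 13 survival genes (0.09). Bcl2l11, the death activator Bim, was at 45.3 CPM in the NK-receptor T cells and 23.6 CPM in the other T cells (0.86, 0.48 to 1.003).

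Of the 15 genes of the AP-1 and dissociation response 1 was called lower, Atf3, on 7 UMIs in the NK-receptor T cells (-1.57, -2.34 to -1.55), and the list median was -0.27. Fos was at 267 CPM in the NK-receptor T cells and 439 CPM in the other T cells, and in both it was lowest in hashtags 5 and 6. Of 12 measured proliferation genes 1 was called lower, Birc5, with 1 UMI in the NK-receptor T cells, and the median was -0.69. Mki67, the mark of cycling cells, was detected in 2.33% of NK-receptor T cells and 4.07% of other T cells.

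Outside the lists, 9 genes were among the 20 largest called increases. Gm19585, a long non-coding RNA gene in the RefSeq table, was detected in 75 NK-receptor T cells and stood at 168 CPM in them, against 44.5 CPM in the other T cells (1.73, 1.05 to 2.41). Kcnj8, a subunit of ATP-sensitive potassium channels, was at 37.999 CPM in the NK-receptor T cells and 1.82 CPM in the other T cells (2.81, 2.36 to 3.05). Samd3 was at 46.8 and 5.60 CPM (2.17), F2rl2, a receptor of the thrombin receptor family, at 18.9997 and 1.55 CPM (2.15), and Btbd11 at 46.8 and 9.24 CPM (2.07). The other 4 were Tm6sf1 (2.01), the monocarboxylate transporter gene Slc16a6 (1.94), the RNA-binding protein gene Rbpms (1.91) and the lysosomal sulfatase gene Arsb (1.79). Except for Gm19585 and Tm6sf1 each of them rested on under 50 UMIs in the NK-receptor T cells.

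Of the 10 largest called decreases 6 were genes of other lineages, and the other 4 were Il6ra, given above, Birc5, Ube2c and Dxo. Hba-a1, Hba-a2, Hbb-bs and Hbb-bt encode haemoglobin chains, and Hbb-bs stood at 114, 60.8, 101, 116, 118 and 55.6 CPM in the NK-receptor T cells of hashtags 1 to 6, against 294, 1038, 904, 78.9, 419 and 1016 CPM in the other T cells. It was nevertheless detected in more of the NK-receptor T cells, 28.5% against 21.9%. Igkc, the immunoglobulin light chain, was at 392 CPM in the NK-receptor T cells and 3829 CPM in the other T cells, with detection in 76.2% and 72.2% of cells and in all 13 B-like cells. For both genes the level was thus lower although no fewer of the cells were positive. Fn1, fibronectin, had 3 UMIs in the NK-receptor T cells, the cycling gene Ube2c 2 and Dxo 1. Erythroid and platelet markers summed to 122 to 244 CPM in the NK-receptor T cells of the 6 hashtags and 169.95 to 1847 CPM in the other T cells, with 3 of 4 called lower, and endothelial and stromal markers to 45.6 to 563 CPM and 199.6 to 428 CPM, with 3 of 7 called lower (Col1a1, Col3a1 and Dcn). Macrophage and dendritic markers, none of 7 called, summed to 38.9 to 1541 CPM in the NK-receptor T cells and 97.4 to 325 CPM in the other T cells. Some of these markers lay mostly in single cells: 1 NK-receptor T cell of hashtag 1 held 75 of the 98 Lyz2 UMIs, and 1 of hashtag 5 held 62 of the 79 Gpihbp1 UMIs. At least 2 UMIs of these markers, Ighm and Itgax left out, were found in 66 NK-receptor T cells (38.4%) and in 31.5% of all T cells. Pairs of cells with the same hashtag were not removed, and their part in these values was not tested.

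The genes called higher were also looked at for short sequence motifs of transcription factors that act in cytotoxic lymphocytes. In RefSeq promoter windows of GRCm38.p6, 250 bases before to 50 after the start, 19 of the 30 called genes matched, with 23 promoters. The RUNX core TGTGGT, searched on both strands (ACCACA on the other), was in 10 of these 23 promoters (43.5%) and in 16.8% of all 32851 promoters. The T-box half-site AGGTGTGA (TCACACCT on the other strand) was in 2 of 23 (8.70%) and in 1.28% of all. The RUNX core letters of 7 called genes, each with the 12 bases on either side, are shown on the gene's strand with the match in capitals, because they are the matches behind that share. Btbd11, Gm19585 and Nkg7 lie on the plus strand and the other genes on the minus strand:
Btbd11, 195 bases upstream, chr10:85598204-85598233: tgctctgtgcctTGTGGTagcctggtgctt
Cd160, 76 bases upstream of one start, chr3:96829410-96829439: tgatctctatcaACCACAcccacacaaacc
Cd160, 101 bases upstream of another start, chr3:96814605-96814634: aaaaacccattcTGTGGTttttcaaagatc
Cx3cr1, 54 bases upstream, chr9:120068333-120068362: taaagatagggtACCACAcaggaaaccaga
Gm19585, 61 bases upstream, chr17:52149216-52149245: tgcagggttttcTGTGGTttgggtacaact
Ly6c2, 179 bases upstream, chr15:75112133-75112162: ggtcccttcccaACCACAgagtcctccctc
Nkg7, 83 bases upstream, chr7:43437043-43437072: gggcccacccctACCACAtaggaggagagg
Txk, 20 bases upstream, chr5:72736605-72736634: ttcagaagggaaACCACActggtcagggtg
A further match, in Il18rap, lay downstream of its start. A match describes letters in a window and not a bound site, and the choice of genes came from these cells.

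T cells of 2 kinds, defined among the other T cells, were chosen for comparison as the most similar. How similar they were was not measured. Gzmk Eomes T cells had UMIs of both genes (218 cells), and Th1-type T cells had at least 2 of Cxcr3, Ly6c2, Il18r1, Ifng and Tbx21 without both Gzmk and Eomes (2228 cells). Against the Gzmk Eomes cells, compared in 3 hashtags, 181 of 8550 genes were called higher (2.12%) and 121 lower (1.42%). Gzmk and Eomes were lower by definition. Both classes had high Nkg7, at 1226 CPM in the NK-receptor T cells and 1972 CPM in the Gzmk Eomes cells, while Ccl5 was lower in the NK-receptor T cells, at 6292 against 20954 CPM (log2 ratio -2.26, -3.01 to -1.01). Higher in the NK-receptor T cells were Ly6c2 (4.82, 3.68 to 6.29), Plac8, a gene of activated and innate-like lymphocytes (4.36, 1.58 to 5.36), and the residency integrin Itga1 (3.21, 2.88 to 3.47). Also higher were Cd226 (3.01, 2.90 to 3.69), Cd160 (2.82, 2.40 to 4.25), Xcl1 (2.07, 1.15 to 2.93) and Tbx21 (1.64, 1.28 to 1.94). The genes lower in the NK-receptor T cells included Cxcr5, the receptor of follicular helper cells (-3.11, -4.85 to -2.96), Tox, a factor of exhausted and follicular helper cells (-2.03, -2.92 to -1.27), Sh2d1a, the SLAM-receptor adaptor SAP (-1.35, -2.27 to -1.16), and Slamf6 (-1.40, -2.03 to -1.24).

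Against Th1-type T cells, compared in 4 hashtags, only 19 of 8474 genes were called higher (0.224%) and 57 lower (0.673%). The 5 genes that defined the Th1-type cells are not read here. The genes higher in the NK-receptor T cells included Cd160 (2.85, 1.70 to 3.79), Klra3 (3.13, 1.09 to 4.39), Trgc1 (2.58, 1.57 to 3.90), Cx3cr1 (2.44, 1.65 to 3.19), Slamf7 (2.24, 1.77 to 3.19), Txk (1.87, 1.54 to 1.89), Ctsw (1.85, 1.27 to 2.25) and Satb1 (1.48, 1.03 to 2.18). Those lower included Il6ra (-2.09, -2.62 to -1.19), the inhibitory receptor Ctla4 (-1.61, -1.97 to -1.20), the actin-capping gene Capg (-1.41, -2.20 to -1.10) and the cycling genes Birc5 and Rrm2. Hashtags 2 and 4 are not part of these ratios. In hashtag 2 the Slamf7 level of the NK-receptor T cells, given above, was below the 37.4 CPM of the Th1-type cells. In hashtag 4 their Ctsw level was close to the 108 CPM of the Th1-type cells. Slamf7 in hashtag 4 and Ctsw in hashtag 2 were higher in the NK-receptor T cells. Cd160 stood at 68.7, 15.2, 28.98, 69.9, 276 and 183 CPM in the NK-receptor T cells of hashtags 1 to 6, against 10.03, 9.34, 3.90, 2.17, 17.6 and 15.99 CPM in the Th1-type cells. Cxcr6, in the same order, stood at 221, 379.8, 275, 396, 819 and 956 CPM in the NK-receptor T cells, against 350.0, 355, 289.8, 289, 128 and 147 CPM in the Th1-type cells. The Cxcr6 level of the NK-receptor T cells was the lower one in hashtags 1 and 3 and the higher one in hashtags 2 and 4, by under 2-fold in each, and in hashtags 5 and 6 the NK-receptor T cells had over 6 times the level of the Th1-type cells. Zeb2 stood at 214, 289, 289.8, 373, 20.5 and 16.7 CPM in the NK-receptor T cells, against 50.9, 64.6, 32.9, 35.8, 21.3 and 29.7 CPM in the Th1-type cells, higher in the NK-receptor T cells of hashtags 1 to 4. In hashtags 5 and 6 the NK-receptor T cells had only 4 and 3 Zeb2 UMIs, with values within counting error of the Th1-type cells.

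**Figure D4:**
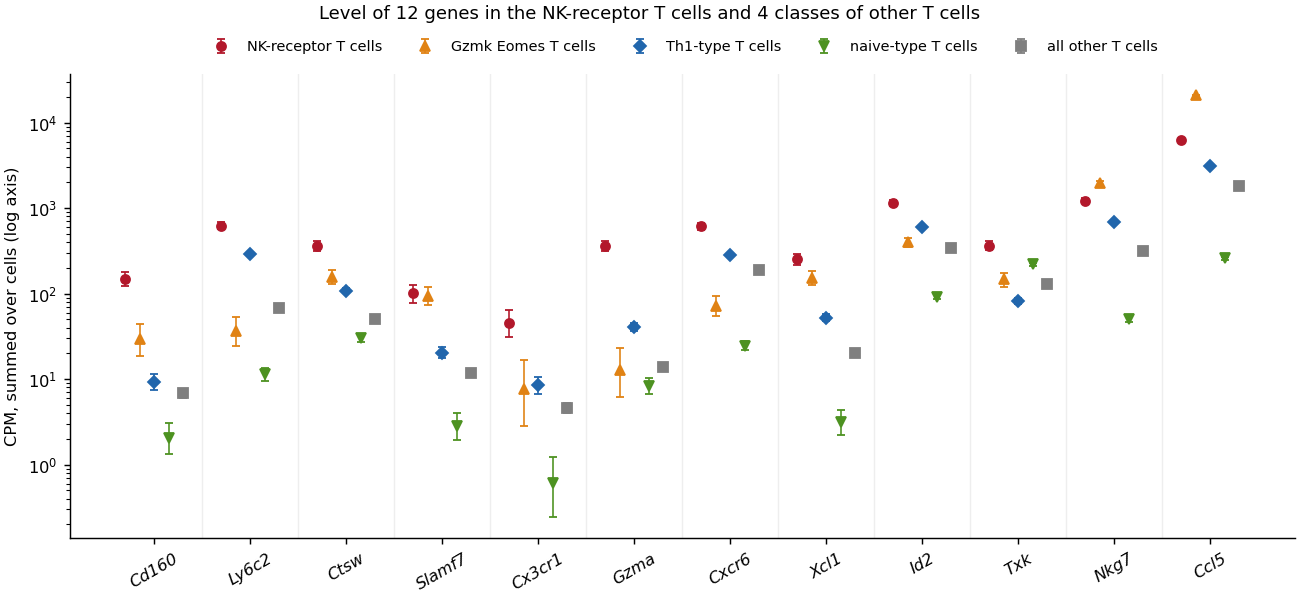
Level (CPM summed over cells, log axis) of 12 genes in the NK-receptor T cells, the Gzmk Eomes, Th1-type and naive-type T cells and all other T cells, with exact Poisson 95% intervals. The NK-receptor T cells are the highest class for Cd160, Ly6c2, Ctsw, Cx3cr1, Gzma, Cxcr6, Xcl1, Id2 and Txk, and the Gzmk Eomes cells for Nkg7 and Ccl5.

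Several genes rose with the number of receptor genes detected in a cell. The 4 steps, none, 1, 2 and 3 or more, pooled all hashtags. Along these 4 steps Nkg7 stood at 301, 499, 1104 and 1379 CPM, Ctsw at 47.4, 104.6, 255 and 494 CPM and Cd160 at 5.69, 24.7, 113 and 194 CPM. Id2 stood at 332, 507, 894 and 1475 CPM and Slamf7 at 10.8, 26.6, 63.1 and 148 CPM. Ccl5, Gzma, Tbx21 and Cx3cr1 instead had their highest value at 2 genes: Ccl5 was at 1751, 3284, 7063 and 5326 CPM and Cx3cr1 at 3.45, 22.9, 60.5 and 26.3 CPM. Only for Ccl5 were the 95% intervals at 2 and at 3 or more apart, and for Gzma, Tbx21 and Cx3cr1 they overlapped. Cx3cr1 had 23 and 8 UMIs at these last steps, and Gzma was detected in 12.8% of cells at both. Ccr7 was at 143, 144, 44.7 and 46.1 CPM, so cells with 1 receptor gene kept the level of cells with none, and Cd4 stayed at 171, 152, 139 and 148 CPM. Median depth at the 4 steps was 3173, 3647, 3279 and 3516 UMIs. Of the 36, 14, 20, 9, 45 and 48 NK-receptor T cells of hashtags 1 to 6, 16, 4, 6, 2, 23 and 27 had 3 or more. The steps thus drew on the hashtags unequally, and the part of this in the levels was not tested. The 653 cells just outside the rule, with 1 receptor gene, thus lay between the cells with none and the cells with 2 for Nkg7, Ctsw, Cd160, Id2 and Slamf7.

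**Figure D5:**
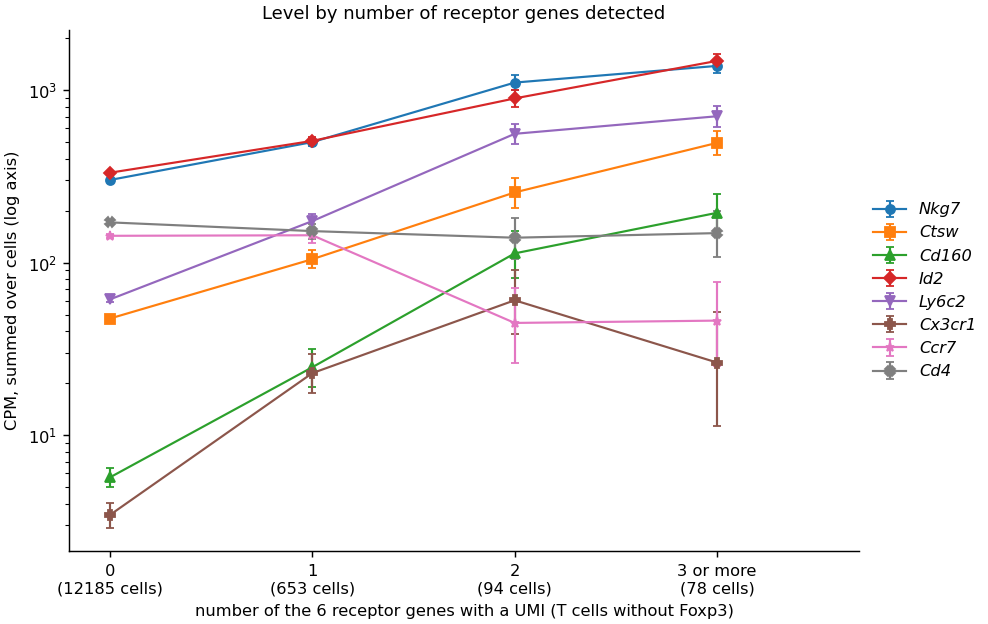
Level (CPM summed over cells, log axis) of 8 genes in T cells without Foxp3, by the number of the 6 receptor genes with a UMI, with exact Poisson 95% intervals and the number of cells under each step. Nkg7, Ctsw, Cd160, Id2 and Ly6c2 climb over the 4 steps, Cd4 stays level, and Ccr7 is lower at 2 and at 3 or more. The steps pool the hashtags in unequal parts.

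The NK-receptor T cells were also split by the coreceptor transcripts detected in them. Cd4 was detected in only 42.5% of the other T cells, so a missing UMI does not show that Cd4 is absent. The 64 cells with Cd4 alone had Zeb2 at 228 CPM, Gzma at 571 CPM and S1pr5 at 57.8 CPM, against 60.5, 234 and 10.5 CPM in the 104 cells with neither coreceptor. They had less Klrb1c, at 108 against 247 CPM, less Cd160, at 93.9 against 197 CPM, and less Cxcr6, at 491 against 742 CPM. Klrk1 and Nkg7 stood close together in the Cd4-only cells and in those with neither, at 412 and 423 CPM for Klrk1 and 1261 and 1236 CPM for Nkg7. Over all 172 cells S1pr5 rested on 20 UMIs in 12 cells, and 3 of the 22 cells with Gzma held 45.3% of its UMIs. In hashtags 1 to 6 the Cd4-only cells numbered 17, 7, 7, 4, 13 and 16 and those with neither 18, 7, 11, 5, 32 and 31. The 2 subsets thus drew on the hashtags unequally, and the part of this in the differences was not tested.

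Cxcr6 was detected in all 9 cells with Zbtb16, and none of these cells had a UMI of Gzma, Zeb2, Cx3cr1 or Tyrobp. Their Ly6c2 stood at 62.6 CPM, against 665 CPM in the 163 NK-receptor T cells without Zbtb16, and their Cd160 at 313 against 137 CPM. Ctsw was at 647 and 339 CPM, Klf2, a factor of recirculating cells, at 188 and 495 CPM, and Ccl5 at 2839 and 6552 CPM. All 9 were in hashtags 5 and 6, where the NK-receptor T cells without Zbtb16 were low in Ly6c2, Zeb2 and Gzma as well. Of the 45 and 48 NK-receptor T cells of these hashtags, 41 and 44 had Cxcr6. Gzma was in 0 and 4 of them, Zeb2 in 3 and 2, Cx3cr1 in 2 and 1 and Tyrobp in 3 and 3. Cd160 was also highest in these hashtags. The part of the hashtags in the contrast with the 163 cells was not tested. The 35 cells with a Trgc UMI had Gzma at 651 CPM, Cd7 at 235 CPM and Txk at 540.2 CPM, against 361, 117 and 365 CPM in all 172. The 13 cells with 3 or more NK cell markers had Ly6c2 at 1279 CPM and Cxcr6 at 291 CPM, against 557 and 649 CPM in the other 159. Without these 13 cells, 3 hashtags kept at least 20 NK-receptor T cells, 53 genes were called higher, and 23 of the 30 genes called with them were among the 53.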

How the data were processed

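The study was 1 pooled 10x Genomics 3′ gene expression library and 1 hashtag library of mouse CD4+ T cells. Both matrices hold counts of unique molecular identifiers, as deposited by the authors. Per the submitters' processing notes, Cell Ranger 6.0, Seurat 3 and the mm10 build were used, while the header of the expression matrix names cellranger 4.0.0. No normalization is recorded in the matrices.

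Barcodes were kept with at least 500 genes, under 10% mitochondrial UMIs, and 80% or more of at least 10 tag counts from 1 of hashtags 1 to 6. This removes pairs of cells with different hashtags; pairs with the same hashtag were not removed, and no doublet caller was run. Counts were summed per class and hashtag and scaled to CPM. Genes with at least 10 CPM in either class were compared. The added 0.5 counts were first applied to each class on its own; after the values were seen, 1 CPM value, 0.5 counts of the smaller class, was used on both sides. The limit on T cell UMIs of B-like and macrophage-like cells was likewise raised from 0 to under 2 after counts were seen. With 1 library there is no replicate and no test. Intervals (exact Clopper-Pearson for shares, exact Poisson for CPM, 95%) and the limit of 3 counts for a 0 cover counting error only. The method was tested on simulated Poisson counts, with changes well above 2-fold in genes at 50 CPM or more. That simulation does not cover changes near 2-fold, genes at lower levels or the spread between cells.

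The genes named are members of the lists at 10 CPM or more, clock genes at any level, and the 20 largest increases and 10 largest decreases among called genes. The cells, the lists and the rules were chosen with earlier results of these data known. Numbers were computed with Python 3.11.15, numpy 2.4.6, scipy 1.17.1 and pandas 2.3.3, and plots with matplotlib 3.10.9. Alternatives changed 1 choice at a time, except that the stricter cell filter changed the minimum of genes and the mitochondrial limit together. Genes with near-identical copies are uncertain where counting could split their reads. A few genes of the lists are not reported here by name.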

Additional observations from a re-analysis of the deposited data

How the results depend on the processing

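Among the settings tried, several were chosen after seeing the data: leaving out the NK-receptor T cells with 3 or more NK cell markers, a minimum of 50 CPM, filters on other lineages that do not count Ighm and Itgax, and all settings for the Gzmk Eomes and Th1-type cells. Requiring 3 receptor genes left 78 NK-receptor T cells (0.566% of T cells), thinning all cells first left 96 (0.846%), and leaving out cells with UMIs of other lineages left 50 (0.923%), too few in every hashtag for a comparison, or 106 (1.12%) with Ighm and Itgax not counted. Leaving out 1 hashtag gave 124 to 163 cells and 1.19 to 1.30%. The 30 genes higher and 33 lower than in other T cells became 56 and 52 at 1000 genes and 5% mitochondrial UMIs, 254 and 311 at 3 receptor genes, where only 2 hashtags qualified, and 48 and 195 after thinning. They became 59 and 92 under the lineage filter, 5 and 5 with an added count of 5, 53 and 56 without the NK-marker cells, and 15 and 11 at 50 CPM. Higher genes numbered 54 at 90% tag purity and 61 at 4 T cell UMIs, and lower genes 54 with no minimum and 57 without the 50 most abundant genes. Leaving out 1 hashtag gave 29 to 56 higher and 33 to 87 lower. Ctsw, Ly6c2, Nkg7 and Txk were called higher in all 17 settings, and no gene was called lower in all. Fewer hashtags make calls easier by construction; otherwise the cause was not tested.

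Median ratios of lists moved as follows. Other NK receptors had 0.14 at 90% purity, 0.00 with no minimum and 2.70 without NK-marker cells (1.75 to 2.17 leaving out 1 hashtag). Granule genes had 0.14 at 3 receptor genes and 0.19 with an added count of 5 (0.45 to 0.77), and gamma-delta genes 0.43 and, with no minimum, 0.00 (1.79 to 2.35). Naive genes had -1.885 at 3 receptor genes and -1.63 after thinning (-1.23 to -0.69), and Th1 genes 0.978 to 2.10 leaving out 1 hashtag. Cytokine receptors reversed to -0.0165 under the lineage filter, -0.00135 with no minimum and -0.00988 without the 50 most abundant genes (0.03 to 0.15). Homing genes had 0.61 under the lineage filter, 0.06 without hashtag 5 and 0.043 without hashtag 6 (up to 0.50). Transcription factors reversed to 0.20 at 1000 genes, 0.11 at 90% purity, 0.20 at 3 receptor genes, 0.17 at 4 T cell UMIs, 0.25 after thinning and 0.12 without NK-marker cells, were -0.053 under the lineage filter, and ranged over -0.30 to 0.12 leaving out 1 hashtag, with 0.12 without hashtag 3. Against Gzmk Eomes cells 181 higher and 121 lower became 19 and 13 with an added count of 5 and 48 and 29 at 50 CPM. Against Th1-type cells 19 and 57 became 2 and 1 with an added count of 5, 8 and 8 at 50 CPM, and 44 and 119 without NK-marker cells. Of 854 values of 57 single genes, 756 stayed within the spread between hashtags, 95 moved and 3 reversed: Cx3cr1 to -0.27 after thinning, and Hbb-bs to 0.0013 and Fn1 to 0.54 under the lineage filter. Hbb-bs is itself among the genes by which the lineage filter leaves out cells, so its value there follows in part from the filter. Depth limits single genes in hashtags 2 and 4, where 1 UMI was worth 15.2 and 23.3 CPM.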

Other observations

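Some levels in the NK-receptor T cells rested on single cells. In hashtag 2, 1 cell held 195 of the 255 UMIs of Ccl4, 1 cell held 27 of the 33 of Ccl3, both chemokine genes, and 1 cell held 22 of the 31 of Il10, an anti-inflammatory cytokine; whether these are the same cell was not looked at. Areg, a tissue repair growth factor, had 43 of 72 UMIs in 1 cell of hashtag 1. Complement gene C1qa had 35 of 46 UMIs in 1 cell of hashtag 1. Bst2 had 35 of 106 UMIs in 1 cell of hashtag 4, and Ctla4 25 of 64 in 1 cell of hashtag 2. Gzma had 50 of 247 UMIs in 1 cell of hashtag 2, and only 1 cell of hashtag 4 had it. In hashtag 4, 1 cell held 39 of the 180 Tyrobp UMIs and 1 cell held 43 of the 426 Ly6c2 UMIs. By contrast no cell held over 3% of the UMIs of Hcst, Id2, Nkg7, Txk or Lck.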
